A study of Mus musculus with 2 samples.

Results

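Of the 2263 spots over tissue in 2 sections of mouse back skin, 160 muscle spots, 80 in each section, were selected on their own counts as the spots with the most Myh2 and Tnnt1 relative to Myh4 and Pvalb. In each section the spots with at least 500 UMIs (unique molecular identifiers, the counted RNA molecules) were ranked by the share of their UMIs from 4 skeletal muscle genes (Acta1, Ckm, Tnnt3 and Tnnc2), and the top 160 of each section were kept. In each section these were then ranked by the fibre ratio, (Myh2 + Tnnt1 + 1) / (Myh4 + Pvalb + 1). The upper 80 are called Myh2-high spots and the lower 80 Myh4-high spots. A spot is a small region of tissue that can hold pieces of several fibres and of the tissue between them, and fewer cells of a type cannot be told apart from less RNA per cell.

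The study used spatial transcriptomics to compare skin with and without sphingosine 1-phosphate receptor 2 in keratinocytes under psoriasis-like inflammation. Both animals were S1pr2fl/fl mice, with both copies of S1pr2 flanked by loxP sites, and 1 of them also carried K14-Cre, a recombinase driven by the keratin 14 promoter in keratinocytes. Both mice were treated from 8 weeks of age with 62.5 mg of 5% imiquimod (IMQ) cream daily for 7 days, after hair removal from the back, and no untreated section was analysed here. Each genotype is 1 mouse and 1 library, so no test between genotypes was possible, and genotype, animal and place in the skin cannot be told apart. K14-Cre is aimed at keratinocytes and not at muscle fibres. S1pr2 had few UMIs in the muscle and in the sections as a whole. In the S1pr2fl/fl section it had 7 UMIs in the Myh2-high and 9 in the Myh4-high spots, of 154 in all. In the S1pr2fl/fl K14-Cre section it had 1 and 6 of 54, and a difference in muscle was not tested. All values below are described with 95% intervals that cover counting error only.

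Skeletal muscle fibres are classed by the myosin heavy chain they use, the motor protein that sets how fast a fibre shortens. Slow fibres use Myh7, and the fast fibres use Myh2 (type IIA, rich in mitochondria), Myh1 (type IIX) or Myh4 (type IIB, glycolytic). Mouse skin has a thin sheet of striated muscle under the fat, the panniculus carnosus, which moves the skin and is built mainly of fast fibres. Fibres also differ in the troponins, light chains, Z-disc proteins and calcium pumps they pair with their myosin, and Pvalb encodes parvalbumin, a calcium buffer of the fastest fibres.

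Of the 1282 spots of the S1pr2fl/fl and the 981 of the S1pr2fl/fl K14-Cre section, 1096 and 947 reached 500 UMIs. The sections shared 357 spot barcodes, which are codes of array positions and not cells. Most muscle spots lay in a thin band on the side of the section away from the keratinocytes, and the S1pr2fl/fl K14-Cre section had a second band deeper in the tissue. The 80 Myh2-high spots of the S1pr2fl/fl section held 283673 UMIs and the Myh4-high spots 322817. The sums in the S1pr2fl/fl K14-Cre section were 215820 and 269943. UMIs per Myh2-high spot ranged from 534 to 16921 with a median of 2618.5 in the S1pr2fl/fl section, against a median of 4175.5 in the Myh4-high spots. Those of the S1pr2fl/fl K14-Cre section ranged from 633 to 7356 with a median of 2048.5, against 2837.5. The Myh2-high spots were thus the shallower ones in both sections, and every level below is given as CPM, UMIs per 1e+06 UMIs of the same spots.

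**Figure D1:**
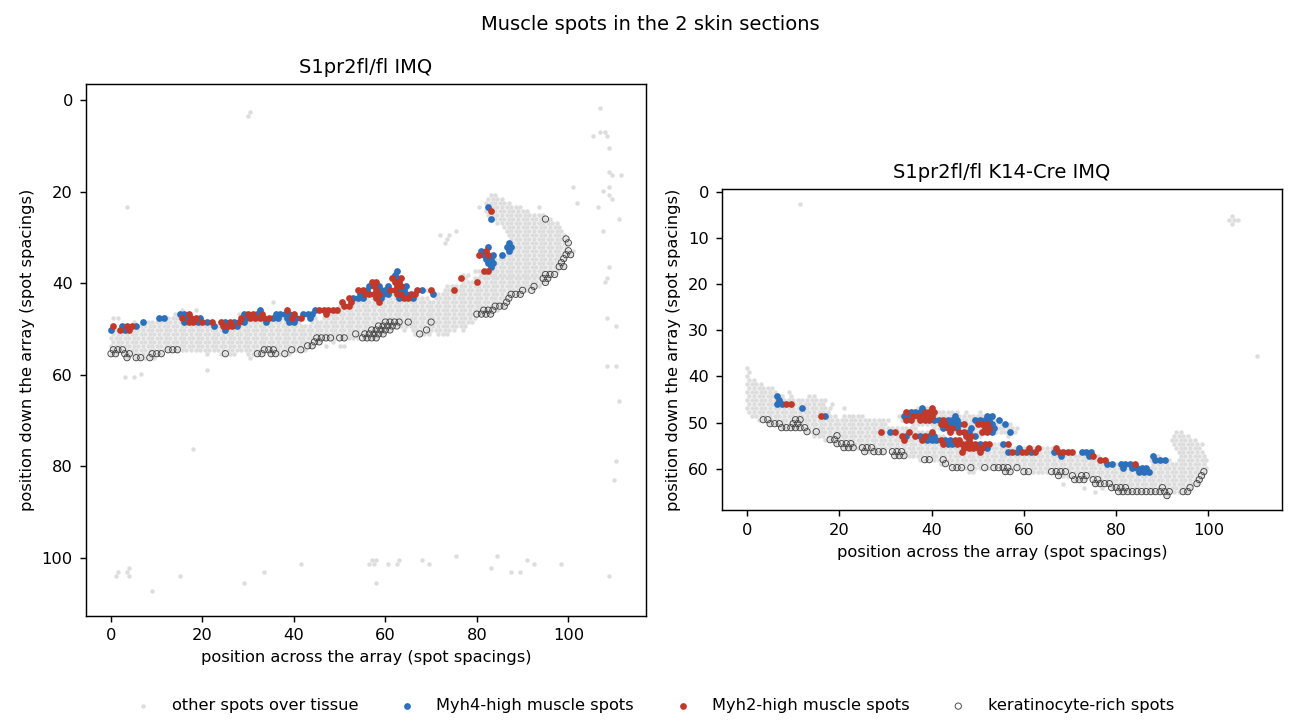
Position of the 80 Myh2-high spots (red) and the 80 Myh4-high spots (blue) of each section among all spots over tissue (grey), with the 100 spots richest in keratinocyte markers ringed; both axes are in units of the distance between neighbouring spots. The muscle spots follow the edge of the skin away from the keratinocytes, red and blue are mixed along it, and the S1pr2fl/fl K14-Cre section has a second muscle band deeper in the tissue.

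The rule divided the spots by fibre genes and left their muscle content nearly level. The 4 muscle genes made a median of 6.87% of UMIs in the Myh2-high and 6.88% in the Myh4-high spots of the S1pr2fl/fl section. The medians of the S1pr2fl/fl K14-Cre section were 11.5% and 10.9%. A separate list of 17 sarcomere genes that all fibres use, among them Ttn (titin, the spring of the sarcomere) and Des (desmin), summed to 53696 CPM in the Myh2-high spots against 49725 CPM in the Myh4-high spots of the S1pr2fl/fl section, 1.08-fold (1.06 to 1.10). In the other section it summed to 57108 against 51318 CPM, 1.11-fold (1.09 to 1.14). At the edge of the muscle ranking the last spot inside had 4.85% and the next spot outside 4.77% in the S1pr2fl/fl section, and 9.75% and 9.72% in the S1pr2fl/fl K14-Cre section. The fibre ratio on the 2 sides of its own edge was 0.1 and 0.1 (a tie) in the first section and 0.0236 and 0.0233 in the second.

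The genes of the rule show what it picked. Myh2 had 487 UMIs (1717 CPM) in the Myh2-high spots and 192 UMIs (595 CPM) in the Myh4-high spots of the S1pr2fl/fl section. In the S1pr2fl/fl K14-Cre section it had 379 UMIs (1756 CPM) and 63 UMIs (233 CPM). Per spot the Myh2 count of the Myh2-high spots ran from 0 to 28 with a median of 3 in the first section, and from 0 to 32 with a median of 3 in the second. The counts of the 2 groups of spots overlapped, since Myh4-high spots reached 16 and 5 Myh2 UMIs. Tnnt1, the troponin T of slow fibres, had 47 against 22 UMIs and 67 against 17 UMIs. Myh4 had 3094 UMIs (10907 CPM) in the Myh2-high and 4247 UMIs (13156 CPM) in the Myh4-high spots of the S1pr2fl/fl section, and 7181 (33273 CPM) against 11256 (41698 CPM) in the other. Pvalb had 942 against 1355 UMIs and 1785 against 2503 UMIs.

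The spots differed in how much Myh2 they held. The fibre ratio of the Myh2-high spots reached 0.571 in the S1pr2fl/fl section and 0.8 in the S1pr2fl/fl K14-Cre section, and 0 spots had more Myh2 than Myh4 UMIs. In 13 and 6 of the 80 Myh2-high spots, neither Myh2 nor Tnnt1 had a UMI, and these spots were placed by their few Myh4 and Pvalb UMIs. The 10 spots with the most Myh2 held 39.6% and 42.2% of all Myh2 UMIs of the Myh2-high spots. UMIs of different genes also depend on their probes, so the shares that follow are compared between groups of spots and not between genes. Of the UMIs of 6 myosin heavy chain genes in the S1pr2fl/fl section, Myh2 made 9.64% (8.84 to 10.5) in the Myh2-high, 3.09% (2.67 to 3.55) in the Myh4-high and 5.39% (4.90 to 5.91) in the other spots with at least 500 UMIs. In the S1pr2fl/fl K14-Cre section it made 4.13% (3.74 to 4.56), 0.477% (0.367 to 0.610) and 1.77% (1.60 to 1.94). Myh4 still made 61.2% (59.9 to 62.6) and 78.3% (77.5 to 79.2) of these UMIs in the Myh2-high spots, against 68.3% (67.1 to 69.4) and 85.2% (84.6 to 85.8) in the Myh4-high spots. Myh1 is not in the rule, but its share is taken of UMIs that are mostly Myh4 and so moves with the rule. It made 28.8% (27.5 to 30.03) and 28.5% (27.4 to 29.7) in the Myh2-high and Myh4-high spots of the first section, and 17.1% (16.4 to 17.9) and 13.9% (13.3 to 14.5) in the second, while in CPM Myh1 was 0.932-fold (0.869 to 1.00) and 1.07-fold (1.00 to 1.15). The defining marker of slow fibres, Myh7, had 1 against 1 UMI in the Myh2-high and Myh4-high spots of the S1pr2fl/fl section, and 11 against 2 UMIs in the S1pr2fl/fl K14-Cre section. Since the respiratory chain genes given below were level in both sections, the spots are called by the gene that chose them and not as more oxidative fibres.

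**Figure D2:**
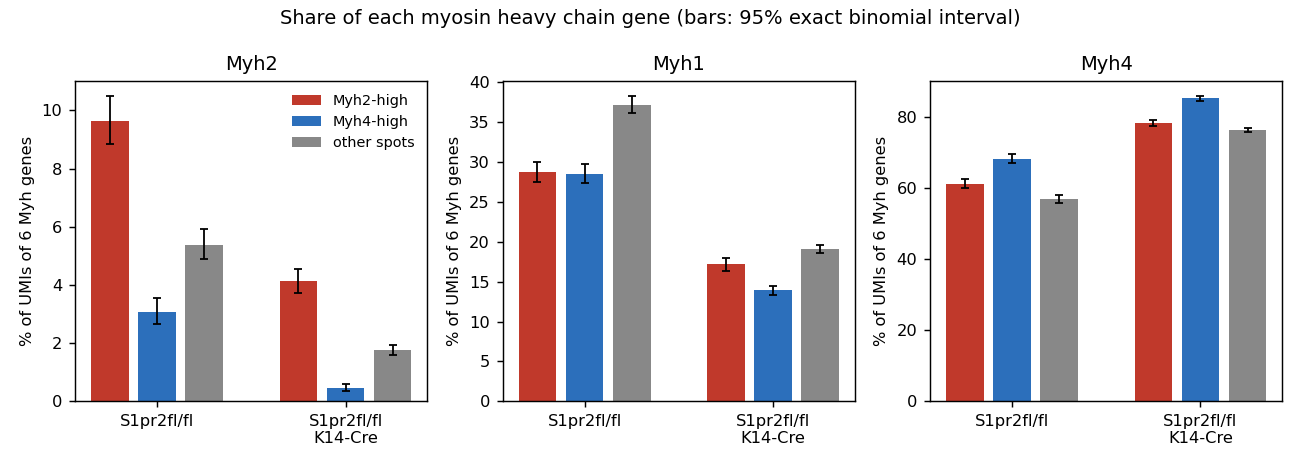
Share of Myh2, Myh1 and Myh4 in the UMIs of 6 myosin heavy chain genes (percent, from 0; error bars are exact 95% binomial intervals) for Myh2-high spots, Myh4-high spots and the other spots with at least 500 UMIs of each section. Myh2 reached 9.64% and 4.13% in the Myh2-high spots, where Myh4 made 61.2% and 78.3%.

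Myh2, Myh1 and Myh4 lie next to each other on chromosome 11 of the mouse genome (GRCm38.p6, plus strand), at chr11:67171027-67197517, chr11:67200102-67224577 and chr11:67237812-67260447. Their promoters are shown because the division of the spots rests on the first and the last of these genes. The sequences are from RefSeq, build GRCm38.p6, and run 5′ to 3′ on the plus strand from 250 bases before to 50 bases after the annotated start. Capitals mark the letters TATAAA, on either strand, and the longest run of bases that all 3 promoters hold.
Myh2, chr11:67170777-67171076: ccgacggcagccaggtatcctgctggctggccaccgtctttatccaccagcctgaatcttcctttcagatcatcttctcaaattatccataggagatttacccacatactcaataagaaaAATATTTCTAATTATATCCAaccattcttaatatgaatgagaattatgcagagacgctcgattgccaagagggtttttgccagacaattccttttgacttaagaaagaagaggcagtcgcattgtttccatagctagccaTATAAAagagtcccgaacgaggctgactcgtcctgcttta
Myh1, chr11:67199852-67200151: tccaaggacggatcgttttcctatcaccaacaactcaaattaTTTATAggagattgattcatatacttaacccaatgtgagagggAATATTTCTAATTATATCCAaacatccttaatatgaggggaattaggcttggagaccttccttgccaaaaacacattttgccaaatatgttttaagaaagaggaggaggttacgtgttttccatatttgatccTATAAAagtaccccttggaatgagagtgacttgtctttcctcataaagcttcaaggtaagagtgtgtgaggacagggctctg
Myh4, chr11:67237562-67237861: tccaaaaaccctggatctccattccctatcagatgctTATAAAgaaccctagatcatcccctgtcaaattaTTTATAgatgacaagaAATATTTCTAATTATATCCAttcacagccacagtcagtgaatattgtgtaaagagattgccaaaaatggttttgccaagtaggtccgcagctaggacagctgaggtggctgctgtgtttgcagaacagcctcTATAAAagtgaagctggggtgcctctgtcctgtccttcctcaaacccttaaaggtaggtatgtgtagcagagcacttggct
The shared run, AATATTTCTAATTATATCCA, was 20 bases long and was found, on either strand, in 3 of 32851 promoters of this length, those of these 3 genes. It began 130, 165 and 163 bases before the start of Myh2, Myh1 and Myh4. TATAAA, found in 13.6% of all promoters, began 32 and 31 bases before the start of Myh1 and Myh4, and 11 bases after the annotated start of Myh2. It had further matches 208 bases before the start of Myh1 and 213 and 179 bases before that of Myh4. The E-box letters CANNTG, found in 72.3% of all promoters, occurred 3 times in the Myh4 promoter and 0 times in those of Myh2 and Myh1. A match of letters does not show a binding site.

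Beyond the rule, Csrp3 and Ankrd2 were among the genes past 1.5-fold in the Myh2-high spots of both sections. Csrp3 (muscle LIM protein, at the Z-disc) had 748 UMIs (2637 CPM) in the Myh2-high and 537 UMIs (1663 CPM) in the Myh4-high spots of the S1pr2fl/fl section, 1.59-fold (1.42 to 1.77). It had 610 (2826 CPM) and 469 UMIs (1737 CPM) in the S1pr2fl/fl K14-Cre section, 1.63-fold (1.44 to 1.84). Ankrd2, an ankyrin repeat protein that responds to stretch, had 182 (642 CPM) against 135 UMIs (418 CPM), 1.53-fold (1.22 to 1.93), and 129 (598 CPM) against 74 UMIs (274 CPM), 2.18-fold (1.63 to 2.94). With spots divided by Tnnt1 and Pvalb alone, however, the log2 ratios in the S1pr2fl/fl section turned to −0.05 for Csrp3, −0.11 for Ankrd2 and −0.07 for Myh2 itself, and in the S1pr2fl/fl K14-Cre section they were 0.42, 0.38 and 0.54. Per sarcomere reference UMI, Csrp3 was below 1.5-fold in both sections, at log2 ratios of 0.55 and 0.55, and Ankrd2 in the first, at 0.51. Both were also below it in the S1pr2fl/fl section with spots divided by Myh2 and Myh4 alone (0.47 and 0.42) and among the top 100 muscle spots (0.51 and 0.26). Cryab, the small heat shock protein alpha B-crystallin that guards desmin and titin, came close to it with 733 against 578 UMIs, a log2 ratio of 0.53 (0.37 to 0.69), and 658 against 557 UMIs, 0.56 (0.40 to 0.73). Divided by Tnnt1 and Pvalb alone, Cryab was at −0.16 and 0.09. In the S1pr2fl/fl section Cryab was at 0.21 with Myh2 and Myh4 alone, 0.27 among the top 100 muscle spots and 0.20 with CPM averaged over spots. Xirp1, an actin-binding protein of repair sites, had log2 ratios of 0.65 (0.07 to 1.24) and 0.58 (−0.01 to 1.18) on 62 against 45 and 55 against 46 UMIs. In the S1pr2fl/fl section Xirp1 turned to −0.78 with spots divided by Myh2 and Myh4 alone and to −0.38 among the top 100 muscle spots. In the S1pr2fl/fl K14-Cre section it was −0.04 within bins of muscle share, 0.03 among the top 100 and 0.02 among the spots nearest the keratinocytes. Ckmt2, the mitochondrial creatine kinase of muscle, had 0.42 (0.18 to 0.65) and 0.70 (0.43 to 0.97). Lmod2, which elongates thin filaments, had 0.42 (0.15 to 0.69) and 0.48 (0.18 to 0.79). Other muscle genes, chosen after their values were seen, lay below 0 in both sections, with the Z-disc protein Pdlim3 at −0.03 (−0.34 to 0.27) and −0.35 (−0.60 to −0.10) and Smpx at −0.02 (−0.25 to 0.22) and −0.10 (−0.36 to 0.16).

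Per spot, these genes overlapped widely between the groups. Csrp3 ran from 0 to 67 UMIs with a median of 5 in the Myh2-high spots of the S1pr2fl/fl section, and from 0 to 45 with a median of 3 in the Myh4-high spots. Cryab had a median of 4 in the Myh2-high and 5 in the Myh4-high spots of the S1pr2fl/fl section, and 6 and 5 in the S1pr2fl/fl K14-Cre section. The differences are of sums over 80 spots, with most spots in a shared range.

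Among all genes with at least 50 UMIs over the 2 groups, 132 of 2224 (5.94%) were at least 1.5-fold higher and 168 (7.55%) at least 1.5-fold lower in the Myh2-high spots of the S1pr2fl/fl section. In the S1pr2fl/fl K14-Cre section 146 of 1449 (10.1%) were higher and 163 (11.2%) lower. Of the 1335 genes that reached 50 UMIs in both sections, 10 (0.749%) were higher in both and 16 (1.2%) were lower in both, and 12 passed the fold in opposite directions. Per sarcomere reference UMI these counts were 5 higher and 34 lower, and with CPM averaged over spots 23 higher and 28 lower, so the balance of the directions depended on the scaling. The 10 higher genes were Myh2 and Tnnt1 of the rule, Csrp3, Ankrd2, Thbs4, Naca, Esd, Htatsf1, Dynlt3 and Prpf19. Naca, whose muscle form is a chaperone of the sarcomere, had 134 against 96 UMIs (1.59-fold, 1.21 to 2.09) and 89 against 70 UMIs (1.59-fold, 1.15 to 2.21). Divided by Tnnt1 and Pvalb alone, Naca turned to −0.15, Thbs4 to −0.41 and Esd to −0.02 in the S1pr2fl/fl K14-Cre section. In the S1pr2fl/fl section Htatsf1 turned to −0.42 and Prpf19 to −0.27. Prpf19 (a splicing factor), Dynlt3 (a dynein light chain), Esd (S-formylglutathione hydrolase) and Htatsf1 (a splicing cofactor) rested on 21 to 70 UMIs in each group. Just below the fold, Jph1 (junctophilin, which ties the calcium store to the surface membrane) had 0.55 (0.03 to 1.08) and 0.52 (0.06 to 0.98). The 16 lower genes included Vat1 (30 against 63 and 19 against 49 UMIs), Gdi2 (26 against 54 and 17 against 46), Hnrnpk (40 against 82 and 21 against 57) and Mdm2 (24 against 47 and 22 against 49). Erp29, a chaperone of the secretory pathway, had 49 against 103 and 42 against 86 UMIs. With Tnnt1 and Pvalb alone, Vat1 turned to 0.0242 in the S1pr2fl/fl section and Hnrnpk to 0.0987 in the S1pr2fl/fl K14-Cre section.

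Most well-counted genes lay near 0. Over the 115 genes outside the rule with at least 300 UMIs in each section, 1 passed the fold in both sections (Csrp3), 40 were higher in both and 36 lower in both. The log2 ratios of the 2 sections were correlated across these genes with a Pearson r of 0.45 and a Spearman rho of 0.41, a description over genes that share spots and depth within a section. Beside Myh4 and Pvalb, the well-counted genes lowest in both sections were Cst3 (cystatin C, −0.28 and −0.44), Atp5g3 (an ATP synthase subunit, −0.19 and −0.42) and Ankrd23 (a titin-binding ankyrin repeat protein, −0.19 and −0.25), all short of the fold.

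**Figure D3:**
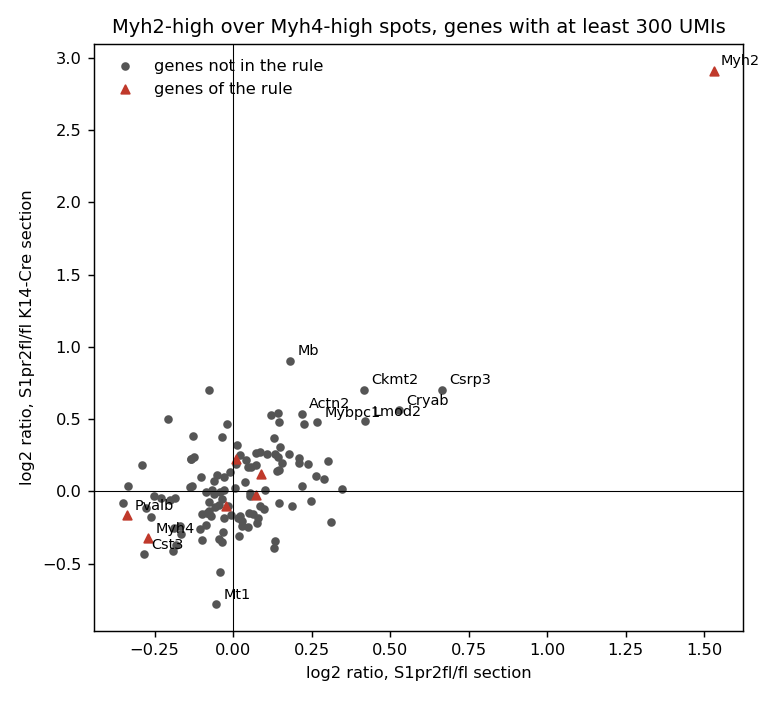
Log2 ratio of Myh2-high over Myh4-high spots in the S1pr2fl/fl section (horizontal) against that in the S1pr2fl/fl K14-Cre section (vertical) for the 122 genes with at least 300 UMIs in each; triangles are genes of the rule. Myh2 stands far to the upper right, Csrp3, Cryab, Lmod2 and Ckmt2 are the genes outside the rule whose smaller value of both sections is highest, and most genes lie near 0 in both sections.

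Pairs of a slow-type and a fast-type gene for the same part of the sarcomere compare fibre genes within the same spots, so that the amount of muscle drops out. Alpha-actinin cross-links thin filaments at the Z-disc, and its Actn2 form occurs in all fibres and its Actn3 form in fast fibres. Actn2 made 70.0% of the UMIs of the pair in the Myh2-high and 62.7% in the Myh4-high spots of the S1pr2fl/fl section, a log2 odds ratio of 0.47 (0.20 to 0.74). In the S1pr2fl/fl K14-Cre section it made 42.9% and 33.6%, 0.57 (0.31 to 0.84). Myosin-binding protein C runs along the thick filament, with Mybpc1 its slow and Mybpc2 its fast form. Mybpc1 made 46.2% and 37.9% of the pair in the first section, 0.50 (0.19 to 0.80), and 24.6% and 18.5% in the second, 0.52 (0.19 to 0.85). These values depended on the setting: the myosin-binding protein C pair of the first section was 0.14 with spots divided by Myh2 and Myh4 alone and 0.11 with CPM averaged over spots, and the alpha-actinin pair of the second was 0.08 with Tnnt1 and Pvalb alone. For the calsarcins, which anchor calcineurin at the Z-disc, the slow Myoz2 had 252 against 249 UMIs and the fast Myoz1 580 against 701 UMIs in the S1pr2fl/fl section, 0.29 (−0.02 to 0.60). The S1pr2fl/fl K14-Cre section had 119 against 43 UMIs of Myoz2 and 682 against 1001 of Myoz1, 2.02 (1.49 to 2.58). Over the settings run, the calsarcin value ran from 0.08 to 0.74 in the first section and from 1.42 to 3.94 in the second. Whether the pair differs between the genotypes was not tested, since each is 1 library.

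The intervals of the calcium pump and calsequestrin pairs included 0 in both sections. The calcium pumps of slow and fast fibres, Atp2a2 and Atp2a1, had log2 odds ratios of −0.16 (−0.57 to 0.24) and 0.06 (−0.40 to 0.51). In the S1pr2fl/fl K14-Cre section the pump pair depended on the setting. It was at 0.515 among the top 100 muscle spots and at 0.778 without the middle 80 spots. The calsequestrins, Casq2 over Casq1, had 0.67 (−0.46 to 1.87) and 0.21 (−0.55 to 0.97) on few Casq2 UMIs. Apart from Tnnt1 of the rule, the slow troponins and light chains had few UMIs. In the Myh2-high against the Myh4-high spots, Tnni1 had 2 against 2 UMIs in the S1pr2fl/fl section and 16 against 12 in the S1pr2fl/fl K14-Cre section. The slow light chain Myl3 had 0 against 0 and 3 against 1. Myl2 had 17 against 2 and 7 against 2, and its log2 odds ratio over the fast Mylpf was 3.13 (1.06 to 6.29) and 1.99 (−0.41 to 5.29). The slow troponin C, Tnnc1, went the other way, with 1 against 2 and 0 against 8 UMIs, and its odds ratio over the fast Tnnc2 in the second section had a 95% upper bound of 0.745.

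**Figure D4:**
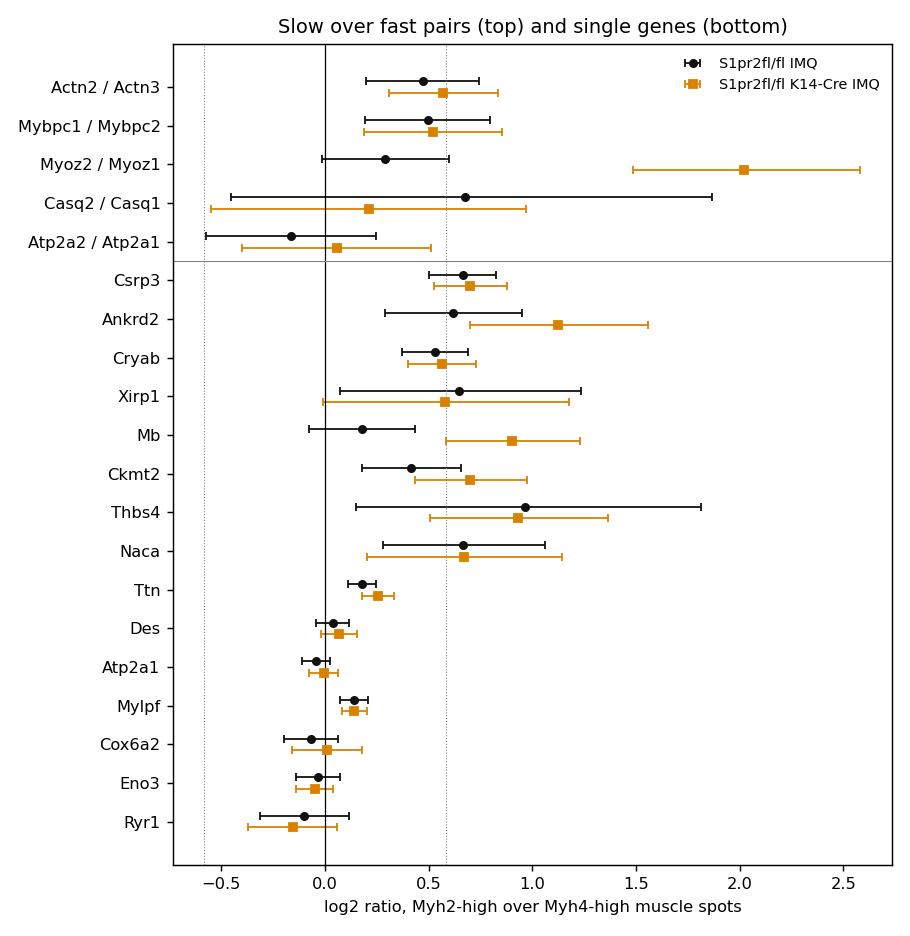
Log2 odds ratios of slow over fast gene pairs (top) and log2 ratios of single genes (bottom), Myh2-high over Myh4-high spots, for each section; points are estimates, bars 95% counting intervals, and dotted lines mark 1.5-fold. Actn2 over Actn3, Mybpc1 over Mybpc2, Csrp3, Ankrd2 and Cryab lie above 0 in both sections, and Myoz2 over Myoz1 is far higher in the S1pr2fl/fl K14-Cre section.

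Gene lists put these genes beside the rest of the fibre programme. Over all genes with at least 50 UMIs the median log2 ratio was −0.02 in the S1pr2fl/fl section and 0.01 in the S1pr2fl/fl K14-Cre section, and the shares past the fold against which each list's counts stand were 5.94% higher and 7.55% lower in the first and 10.1% higher and 11.2% lower in the second. The list of slow and cardiac-type sarcomere and calcium genes, which includes Csrp3, Ankrd2 and Myoz2, had a median of 0.24 over 9 measured genes in the first section, with an interval from the ranks of its genes of −0.21 to 0.62 that includes 0, and 2 were higher past the fold. In the second its median was 0.32 (0.05 to 1.12) over 10, of which 3 were higher. Genes of a list are not replicates. The 17 sarcomere genes that all fibres use also had medians above 0, of 0.13 (0.07 to 0.15) and 0.26 (−0.08 to 0.31). The rise of the slow list is thus in part shared with them, most so in the second section. The slow list summed to 9613 against 7531 CPM in the first section, 1.28-fold (1.21 to 1.35). In the second it summed to 9105 against 6520 CPM, 1.40-fold (1.31 to 1.49). The 17 sarcomere genes were at 1.08-fold and 1.11-fold. Fhl1, a LIM protein and the most abundant gene of the list, had 0.24 (0.10 to 0.37) and 0.19 (0.03 to 0.35), while sarcolipin (Sln), a brake of the calcium pump, had −0.33 (−1.08 to 0.40) and −0.11 (−0.77 to 0.53). Fast sarcomere and calcium genes had medians of −0.04 and −0.01, with 0 of 15 past the fold in either section. Their most abundant member, the fast light chain Mylpf, had 0.14 (0.07 to 0.21) and 0.14 (0.08 to 0.20).

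Genes of the respiratory chain were level between the groups. The 67 nuclear genes of the respiratory chain summed to 28921 against 28391 CPM, 1.02-fold (0.99 to 1.05), in the S1pr2fl/fl section and to 30595 against 29910 CPM, 1.02-fold (0.99 to 1.06), in the S1pr2fl/fl K14-Cre section. Of the 55 measured in the first section 0 passed the fold, and of the 56 in the second 1 was higher and 2 were lower, against 5.94% higher and 7.55% lower of all genes in the first section and 10.1% and 11.2% in the second. Cox6a2, the muscle form of a cytochrome oxidase subunit, had 3155 against 3305 CPM and 2428 against 2412 CPM. Genes of the citric acid cycle had medians of −0.04 and −0.08, with 1 lower in each section. Genes of fatty acid uptake and oxidation had medians of 0.03 and 0.16, with 0 higher and 2 lower of 20 in the first section and 3 higher (Fabp3, Etfa and Acadm) and 1 lower of 15 in the second, counts too small to set apart from the 10.1% higher and 11.2% lower of all genes there. Their sums were 1.00-fold in both sections. Fabp3, which carries fatty acids in oxidative fibres, had 0.03 (−0.37 to 0.42) in the first section and 0.79 (0.12 to 1.47) in the second. Myoglobin (Mb), the oxygen store of oxidative fibres, had 255 against 256 UMIs, 0.18 (−0.08 to 0.44), in the first section and 202 against 135 UMIs, 0.90 (0.58 to 1.23), in the second. Its list of oxygen and antioxidant genes summed to 0.972-fold (0.886 to 1.07) in the first section and 1.20-fold (1.06 to 1.35) in the second, where Mb and Sod1 (superoxide dismutase) passed the fold. Glycogen and glycolysis genes had medians of 0.04 and 0.02, and the most abundant, Eno3 (muscle enolase), had 4865 against 4981 CPM and 8530 against 8831 CPM. Of 13 listed genes of the mitochondrial genome 0 were found in the counts, so their transcripts were not analysed here. Of 18 regulators of the oxidative programme only 3 and 2 reached 50 UMIs, so that list was not measured well. Of the genes of fibre type transcription and calcineurin, 0 of 9 and 0 of 7 were higher and 1 and 2 were lower, where 7.55% and 11.2% of all genes were lower. Ppp3ca, the calcineurin catalytic subunit, was the lower one in the first section with 38 against 83 UMIs. The genes of excitation and calcium release had medians of −0.06 and 0.22, with Ryr1, the release channel, at −0.10 (−0.31 to 0.12) and −0.16 (−0.37 to 0.06).

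Genes of the nerve contact, all under 50 UMIs, summed to 113 against 214 CPM, 0.528-fold (0.336 to 0.814), in the S1pr2fl/fl section and to 352 against 311 CPM, 1.13-fold (0.819 to 1.56), in the S1pr2fl/fl K14-Cre section. Muscle stress and atrophy genes summed to 1.06-fold (0.985 to 1.15) and 0.957-fold (0.865 to 1.06), where the metallothionein Mt1 had log2 ratios of −0.05 and −0.78.

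Embryonic and neonatal myosin were rare. Myh3 (embryonic) had 10 against 4 and 16 against 6 UMIs. Myh8 (neonatal) had 7 against 1 UMIs in the S1pr2fl/fl section and 9 against 45 in the S1pr2fl/fl K14-Cre section, where it was thus the Myh4-high spots that held more.

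Markers of other cell types were present in the Myh2-high spots, and their part in the differences above was not tested. The 15 keratinocyte markers, with Krt14 the most abundant, summed to 13773 CPM in the Myh2-high and 14934 CPM in the Myh4-high spots of the S1pr2fl/fl section and to 2525 and 2100 CPM in the S1pr2fl/fl K14-Cre section. Of the 10 and 8 of them with at least 50 UMIs, 0 and 0 passed the fold upward and 0 and 1 downward. Among all genes 5.94% and 10.1% were higher and 7.55% and 11.2% lower, so these counts are too small to read. The 12 fibroblast markers (Col3a1 the most abundant) summed to 10896 against 11025 CPM and 9573 against 11695 CPM. The 10 macrophage markers summed to 2097 against 2110 CPM, and in the S1pr2fl/fl K14-Cre section to 1728 against 2449 CPM, 0.71-fold (0.62 to 0.80). C1qa, a complement gene of macrophages, had 86 against 221 UMIs there. The 11 adipocyte markers summed to 5245 against 5461 CPM and 11491 against 11951 CPM, and Ucp1, the defining gene of brown fat, had 0 UMIs in both groups of both sections. The 14 endothelial markers summed to 606 against 753 CPM and 820 against 715 CPM, so their direction differed between the sections. Markers of neutrophils and T cells, with S100a9 the most abundant, summed to 3529 against 3624 CPM and 825 against 711 CPM. Of the 6 tendon and fascia markers only Thbs4 (thrombospondin 4, of tendon and muscle attachments) reached 50 UMIs. It was 1.95-fold (1.11 to 3.52) and 1.91-fold (1.42 to 2.57) higher, on 36 against 21 and 119 against 78 UMIs, while the tendon genes Tnmd and Fmod had 3 and 5 UMIs in the Myh2-high spots of the first section and 0 UMIs in the second. With spots divided by Tnnt1 and Pvalb alone, Thbs4 turned to a log2 ratio of −0.406 in the second section.

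**Figure D5:**
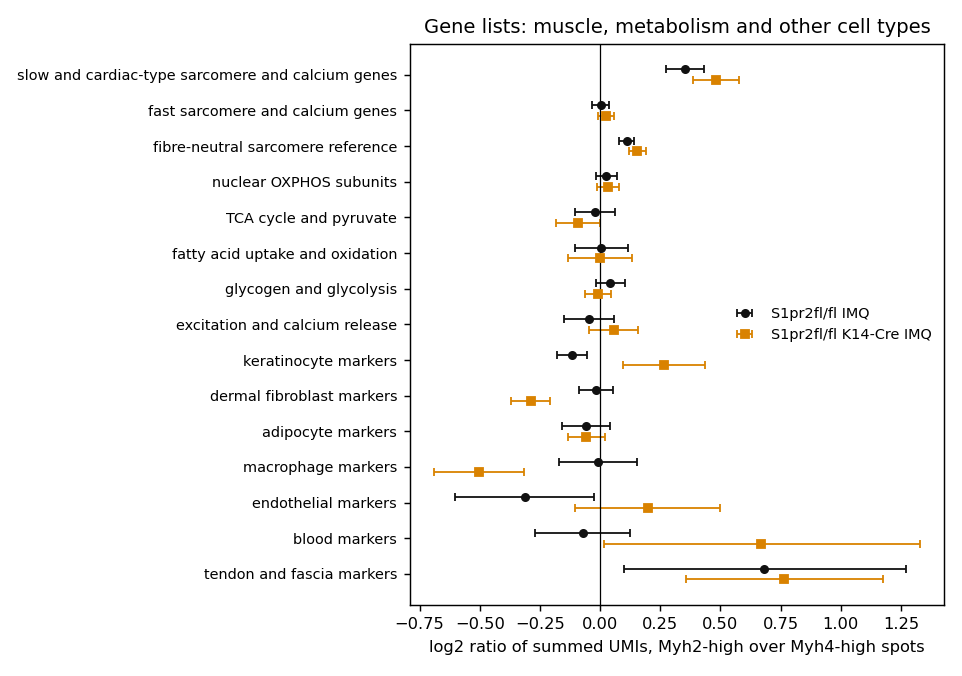
Log2 ratio of summed UMIs per total UMIs, Myh2-high over Myh4-high spots, for gene lists of muscle, metabolism and other cell types in each section, with 95% counting intervals. The slow and cardiac-type list lies above 0 in both sections, and so, to a lesser degree, do the sarcomere genes that all fibres use. The respiratory chain, fatty acid and glycolysis lists lie on 0, and several cell type lists differ in direction between the sections.

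Position gave a view of the spots that the rule did not use. Of the pairs of neighbouring muscle spots, 128 of 249 (51.4%, 45.0 to 57.8) in the S1pr2fl/fl section and 153 of 244 (62.7%, 56.3 to 68.8) in the S1pr2fl/fl K14-Cre section belonged to the same group. The 2 intervals overlap, and pairs that share a spot are not independent. Spots outside the 160 that bordered more Myh2-high than Myh4-high spots played no part in the choice. The ratio of Myh2 to Myh4 in them was 1.68-fold (1.23 to 2.30) that of spots bordering more Myh4-high spots in the S1pr2fl/fl section (87 and 646 UMIs against 102 and 1274) and 1.86-fold (1.38 to 2.49) in the S1pr2fl/fl K14-Cre section (85 and 3205 against 110 and 7699). Csrp3 was 1.43-fold (1.12 to 1.82) and 1.14-fold (0.969 to 1.33), and Cryab 1.12-fold (0.894 to 1.39) and 1.28-fold (1.11 to 1.48). The same comparison gave Ankrd2 1.06-fold (0.565 to 1.95) and 1.39-fold (0.970 to 1.99). Tnnt1 over Pvalb was 1.21-fold (0.488 to 2.83) and 0.864-fold (0.464 to 1.55), and Thbs4 went the other way, at 0.195-fold (0.0221 to 0.804) and 0.714-fold (0.483 to 1.04).

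The muscle spots were also divided at 7 spot spacings from the nearest of the 100 keratinocyte-rich spots, a limit set after the map was seen, which in the S1pr2fl/fl section is the median distance of the Myh2-high spots and divides no separate bands there. Of the Myh2-high spots, 40 lay nearer and 40 deeper in the S1pr2fl/fl section, and 51 nearer and 29 deeper in the S1pr2fl/fl K14-Cre section. Csrp3 was higher in the Myh2-high spots at either distance: 1.52-fold (1.30 to 1.77) near and 1.66-fold (1.41 to 1.96) deeper in the first section, and 1.46-fold (1.25 to 1.72) near and 2.02-fold (1.65 to 2.48) deeper in the second. Ankrd2 and Cryab were above 1 in the same 4 comparisons. These comparisons divide the same spots and UMIs as the sums above and are not separate support. Mb was 1.34-fold (1.05 to 1.71) near and 0.926-fold (0.705 to 1.21) deeper in the first section, and 1.99-fold (1.51 to 2.61) and 2.10-fold (1.38 to 3.24) in the second. Among the deeper spots Thbs4 was 4.57-fold (1.77 to 13.9) and 3.54-fold (2.24 to 5.80), on 20 against 6 and 93 against 24 UMIs. Near the skin it was 1.04-fold (0.480 to 2.25) and 0.779-fold (0.468 to 1.26), on 16 against 15 and 26 against 54 UMIs. Whether Thbs4 differs by distance was not tested, and the 2 intervals of the S1pr2fl/fl section overlap. Myoz2 was 4.74-fold (3.05 to 7.56) near and 2.25-fold (1.21 to 4.42) deeper in the S1pr2fl/fl K14-Cre section, and 1.41-fold (1.09 to 1.82) and 0.951-fold (0.729 to 1.24) in the S1pr2fl/fl section.

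To choose and measure on separate counts, the UMIs of each spot were divided at random into equal parts, one to choose the spots and the other to measure them. Averaged over 20 such divisions, Myh2 itself had log2 ratios of 0.47 in the S1pr2fl/fl section and 1.72 in the S1pr2fl/fl K14-Cre section, against 1.53 and 2.91 in the spots as chosen. Tnnt1 had 0.43 and 1.74, Csrp3 0.31 and 0.74, Cryab 0.19 and 0.55, and Ankrd2 0.22 and 0.81. Myoz2 had 0.16 and 1.68, and Mb 0.16 and 0.99. Xirp1 had 0.04 and 0.46, and Jph1 0.29 and 0.03. All of these were above 0, but in the S1pr2fl/fl section none of them reached 1.5-fold, Csrp3, Ankrd2, Myh2 and Tnnt1 included. The division frees the choice of spots and not that of genes. Csrp3, Ankrd2, Cryab, Xirp1 and Jph1 were named for high values in the full counts, which hold the measured part, so their direction here is not independent support. Past the fold in both sections were 2 higher genes in place of 10 and 7 lower genes in place of 16.

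Between the sections, fast sarcomere and calcium genes summed to 44241 CPM in the Myh2-high spots of the S1pr2fl/fl section and 63080 CPM in those of the S1pr2fl/fl K14-Cre section, 1.43-fold (1.39 to 1.46). The genes of this kind ranged widely, with Myl1 at 0.934-fold (0.855 to 1.02), Tnni2 at 1.14-fold (1.03 to 1.26) and Atp2a1 at 1.27-fold (1.20 to 1.33). Among the rule's own genes and those above, Myh4 was 3.05-fold (2.92 to 3.18) higher in CPM in the S1pr2fl/fl K14-Cre section, Pvalb 2.49-fold (2.30 to 2.70), Casq1 2.61-fold (2.29 to 2.99), Actn3 2.49-fold (2.16 to 2.88) and Mybpc2 2.17-fold (1.91 to 2.47). Myh2 itself was 1.02-fold (0.892 to 1.17), Csrp3 1.07-fold (0.962 to 1.19), Ankrd2 0.932-fold (0.738 to 1.17) and Mb 1.04-fold (0.861 to 1.26). Per sarcomere reference UMI the ratio of Myh4 was 2.87 (2.75 to 2.99) and that of Myh2 0.962 (0.839 to 1.10). Keratinocyte markers were 0.183-fold (0.167 to 0.201) and blood markers 0.158-fold (0.114 to 0.214) in the same spots, and markers of neutrophils and T cells 0.234-fold (0.198 to 0.274). Thbs4 was 4.34-fold (2.97 to 6.50) higher there. The lowest muscle share that entered was 4.85% in one section and 9.75% in the other, and what sets the sections apart was not tested.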

How the data were processed

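Gene expression was measured on 1 section of skin from each of 2 mice with Visium CytAssist, in which pairs of probes are ligated on the RNA of fixed tissue and counted by UMI in spots of known position. For each spot over tissue the deposited files held UMI counts, not normalized, of the genes they covered. The authors made these counts with Space Ranger 3.0.0 per the file headers, with mm10 named in the submitters' processing notes. The probe set was not given in the sources used here, and whether probes also bind close relatives of a gene was not tested.

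The counts held 19465 genes, and 11 repeated symbols were left out. Total counts were 5315351 and 2845826 UMIs. UMIs of each gene were summed over the 80 Myh2-high and the 80 Myh4-high spots of a section, scaled to CPM and compared as a ratio. Genes with at least 50 UMIs over both groups were measured. Intervals are at the 95% level: exact Clopper-Pearson for shares, conditional binomial for ratios and exact conditional for odds ratios. Spots of a section are not replicates and the spots were chosen by their own counts, so no test was made. The members and gene lists were chosen with earlier results of these data known. The rule for named genes took the genes of the rule and of the slow and fast pairs, the 3 most abundant genes of each list with the 2 highest and the 2 lowest, and the 15 highest and the 15 lowest genes of both sections. Slow and fast pairs, neighbouring spots, distance from keratinocyte-rich spots and separate UMIs were further views, and 12 planned and 2 added alternatives were run. The ratios were checked on simulated sums with planted changes, and the rule on a small made-up set of spots. Neither check held the spread between spots or the choice of spots on their own noisy counts. All 437 listed genes in the files matched RefSeq by symbol. Python 3.11.15, numpy 2.4.6, scipy 1.17.1, pandas 2.3.3 and matplotlib 3.10.9 were used.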

Additional observations from a re-analysis of the deposited data

How the results depend on the processing

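Of the results for single genes over all alternatives, 901 kept their direction and their side of 1.5-fold, 161 kept their direction but fell below it, 28 rose past it, 28 that had passed it turned and 30 that had not passed it turned. The 901 include values that were fixed in advance. All 80 and 80 muscle spots of each section lay in connected groups of at least 20 spots, so that alternative chose the same spots for every result. A minimum of 30 UMIs per gene changed only which genes were counted. Of the list, pair, muscle share and count results, 224 moved little and 48 moved. The values below are log2 ratios, first for the S1pr2fl/fl and then for the S1pr2fl/fl K14-Cre section where both are given, and the cause of these shifts was not tested. Dividing spots by Tnnt1 and Pvalb alone turned, in the first section, Myh2 (−0.0713), Csrp3 (−0.0533), Ankrd2 (−0.112), Htatsf1 (−0.423), Prpf19 (−0.271), Vat1 (0.0242), Edf1 (0.00438), Rin2 (0.413) and Morf4l1 (0.0658), and Cryab, which had not passed the fold, was at −0.16. In the second it turned Thbs4 (−0.406), Esd (−0.019), Naca (−0.145), Timp3 (−0.321), Eps15 (−0.0515), Hnrnpk (0.0987), Wfdc1 (0.184), D8Ertd738e (0.0254) and Rin2 (0.149). The muscle share was then 0.136 and −0.0011, the calsarcin pair 1.42 and the alpha-actinin pair 0.0845 in the second section, and 25 genes were lower in both sections. Dividing by Myh2 and Myh4 alone gave Xirp1 −0.779, respiratory chain −0.013, myosin-binding protein C 0.135 and muscle share 0.0907 in the first section, Tomm5 0.00188 in the second, and 5 genes higher in both. Division within bins of muscle share gave Edf1 0.147 in the first section, and Timp3 −0.415 and muscle share 0.0158 in the second. Separate UMIs gave muscle shares of 0.0788 and 0.056, Edf1 0.163 in the second section, and 2 genes higher and 7 lower in both. Per sarcomere reference UMI, Csrp3 was at 0.554 and 0.548 and Ankrd2 at 0.507 in the first section, below the fold, the fast list was at −0.153 in the first section, the respiratory chain at −0.0625 and −0.137 and glycolysis at −0.133 in the second, with 5 genes higher and 34 lower in both. Spots with at least 1000 UMIs had muscle shares of 0.087 and 0.0669. The top 100 muscle spots gave alpha-actinin 0.774 and 0.847, Xirp1 −0.38 and Morf4l1 0.303 in the first section, glycolysis −0.112, calcium pump 0.515 and calsarcin 3.22 in the second, and 4 genes higher and 6 lower. Without the middle 80 spots, alpha-actinin was 0.845 and 1.06, calsarcin 0.656 and 3.94 and muscle share 0.103 and 0.132, with the respiratory chain at 0.122 and myosin-binding protein C at 1.01 in the first section, the calcium pump at 0.778, Edf1 at 0.5 and Rin2 at 0.0733 in the second, and 8 genes lower. Averaging CPM over spots gave myosin-binding protein C 0.108 in the first section, with 23 genes higher and 28 lower, and a minimum of 30 UMIs per gene gave 39 and 52. After the data had been seen, muscle spots within 7 spacings of keratinocyte-rich spots alone were added, with calsarcin 0.739 and myosin-binding protein C 0.818 in the first section, alpha-actinin 0.26 and Thbs4 −0.361 in the second, and 5 genes lower. Leaving out the 10 highest fibre ratios, also added then, turned no gene and moved no list, pair or count result. No paired analysis was possible because each genotype is 1 library.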
